A study of Mus musculus with 15 samples.

Results

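A set of 10 genes of the neutrophil granule and alarmin program was followed through RNA sequencing of sorted mouse T cells. They were 3 primary granule genes (Mpo, Elane, Ctsg), 5 genes of later granules and maturing neutrophils (Ltf, Camp, Ngp, Chil3, Cd177) and the S100 genes S100a8 and S100a9, out of 4567 genes with a row in at least 1 of the 4 deposited gene tables. The genes were picked by symbol. A gene has a row in a table where the authors' adjusted p was under 0.05 and its log2 fold change beyond 2 in either direction, for 1 contrast per table, and all 10 genes have a row in all 4 tables. The contrasts that chose them are CD8 Flica-positive against CD8 Flica-negative cells, CD8 Flica-positive against CD8 control cells, CD8 Flica-negative against CD8 control cells and CD4 Flica-negative against CD4 control cells. The values of the 10 genes in these contrasts are therefore given as a description, with no test. The smallest of these differences was that of Cd177 between CD4 Flica-negative and control cells, at 2.62 on the log2 scale (SE 0.48), and no gene of the set lay outside the thresholds.

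The study asked how T cells with active caspase-1 differ from their neighbours in acute graft-versus-host disease (aGvHD). There were 15 libraries, 3 biological replicates of each of 5 populations. CD4 Flica-negative, CD8 Flica-negative (FN) and CD8 Flica-positive (FP) cells, all labelled C57Bl6, were sorted from spleens on day 7. C57Bl6 T cells had been transferred, with bone marrow, into irradiated allogeneic BALB/c recipients 7 days before. Control CD4 and CD8 cells came from untreated C57Bl6 mice on day 0, so that the controls differ from the other groups in transplantation, recipient strain and irradiation together. Per the paper the control cells were sorted as Flica-negative, so that FP cells differ from them in the Flica gate as well. Flica is a dye-labelled substrate mimic that stays bound to caspase-1 in its active form, and the sort used CD3, CD4 and CD8 antibodies. No antibody against a donor marker is named for the sort. Splenocytes of several mice with aGvHD were pooled for a sort. No ages are given in the labels, and no transgene or knockout was involved. The p-values measure the spread between these libraries.

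Neutrophil granules are filled in order as the cell matures in the bone marrow. Promyelocytes make the serine proteases and peroxidase of the primary granules, and later stages make the contents of the secondary and tertiary granules. S100A8 and S100A9 pair as calprotectin, which makes up much of the neutrophil cytosol and acts as an alarmin, a danger signal, outside the cell. PU.1 and the C/EBP family are transcription factors of this lineage.

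Promoter windows are shown because they set the primary granule genes beside the later ones. Each of the 10 genes matched 1 promoter of RefSeq (GRCm38.p6), 250 bases before to 50 after the start, among 32851 promoters. The PU.1 core GAGGAAG was found on either strand in 4 of 10 promoters, those of all 3 primary granule genes and of S100a8, against 13.6% of all promoters. The C/EBP pattern TTGCNNAA was found in 3 of 10, those of Ltf, Ngp and S100a9, against 10.8% of all promoters. The windows are written 5′ to 3′ on the strand of the gene, upstream of the start in both RefSeq and GENCODE, with the match in capitals (in Ltf and S100a8 the match lies on the other strand and reads as its reverse complement).
Elane, chr10:79886200-79886246, plus strand: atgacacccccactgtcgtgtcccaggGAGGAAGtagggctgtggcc
Mpo, chr11:87793534-87793580, plus strand: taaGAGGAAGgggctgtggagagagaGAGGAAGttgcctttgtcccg
Ctsg, chr14:56102758-56102817, minus strand: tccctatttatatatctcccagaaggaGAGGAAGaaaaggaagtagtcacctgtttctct
S100a8, chr3:90668873-90668932, plus strand: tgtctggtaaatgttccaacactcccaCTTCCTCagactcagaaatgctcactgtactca
S100a9, chr3:90695912-90695971, minus strand: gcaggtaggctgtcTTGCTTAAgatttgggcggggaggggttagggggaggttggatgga
Ltf, chr9:111019190-111019249, plus strand: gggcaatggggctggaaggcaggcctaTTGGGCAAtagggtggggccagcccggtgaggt
Ngp, chr9:110419643-110419702, plus strand: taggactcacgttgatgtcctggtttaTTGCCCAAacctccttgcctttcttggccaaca

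Mpo holds 2 matches of GAGGAAG, both shown, and Ngp holds a further match of TTGCNNAA at position -11 from the start. Of the other patterns searched, AGGAAGT overlaps GAGGAAG where both occur as GAGGAAGT. AGGAAGT was in 5 of 10 promoters, those of Mpo, Elane, Ctsg, S100a8 and the later granule gene Chil3, and in 9.35% of all. TATAAA was in 5 of 10 and in 13.6% of all. The short patterns AACTG (Myb) and AATC (Gfi1) were in 6 and 7 of 10 promoters and in 44.8% and 73.1% of all. These matches are descriptions of the letters and carry no measurement of binding.

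On the genome (GRCm38, GENCODE M21) the genes lie on 6 chromosomes. S100a8 (chr3:90668978-90670035) and S100a9 (chr3:90692632-90695721) lie 22.6 kb apart. Camp (chr9:109847379-109849617), Ngp (chr9:110419747-110423012) and Ltf (chr9:111019271-111042767) lie on one stretch of chromosome 9, with Camp and Ltf 1.17 Mb apart. The others are Chil3 (chr3:106147554-106167564), Cd177 (chr7:24743983-24760311), Elane (chr10:79886247-79888215), Mpo (chr11:87793581-87804413) and Ctsg (chr14:56099881-56102574).

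Counts on the listed genes summed to between 2143579 and 3184674 in the 12 control and FN libraries and to between 7310375 and 11046043 in the 3 FP libraries. They are not the depth of the libraries, which the tables do not hold. Transcripts of the mitochondrial genome took 42.8% to 51.7% of these counts in FP libraries, 15.1% to 16.5% in the 6 FN libraries and 26.1% to 28.8% in controls. Cd8a, the only 1 of 14 T cell markers with a row, was between 9348 and 11492 normalized counts in FP, between 12817 and 14967 in CD8 FN and between 4.41 and 10.4 in CD4 FN libraries. A normalized count is a deposited count divided by the size factor of the library. With factors from TMM, a trimmed mean over the listed genes, the median log2 difference of FP against CD8 FN cells moves by -0.57, against CD8 control cells by -1.61, and calls shift with it. Between FP and CD8 FN cells 929 genes were called higher and 120 lower by edgeR, and 721 and 447 with TMM. Between FP and CD8 control cells they were 2144 and 1100, and 1236 and 1613 with TMM. Cd8a was called lower in FP cells with TMM (edgeR adjusted p = 0.0123) and not with the authors' factors (0.155). The summed hemoglobin and other erythroid markers stood apart in FP library 1, at 112762 normalized counts against 7885 and 2045 in FP libraries 2 and 3.

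The 10 genes were nearly silent in control T cells, present in CD4 FN cells, higher in CD8 FN cells and highest in CD8 FP cells. The order FP above CD8 FN above CD4 FN held for each of the 10 genes in every library, and all FN libraries lay above all controls. The 10 genes together went from 23.3 to 93.8 normalized counts per control library to between 218630 and 432535 per FP library. In bulk RNA a larger share of cells with these transcripts and more transcript per cell cannot be told apart. Over all 4567 listed genes, every FP library lay above every CD8 FN library for 29.9%, every FP above every CD8 control for 48.2%, every CD8 FN above every CD8 control for 40.7% and every CD4 FN above every CD4 control for 35.0%. The rule used these contrasts, and nothing is read from the counts of 10 of 10.

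**Figure D1:**
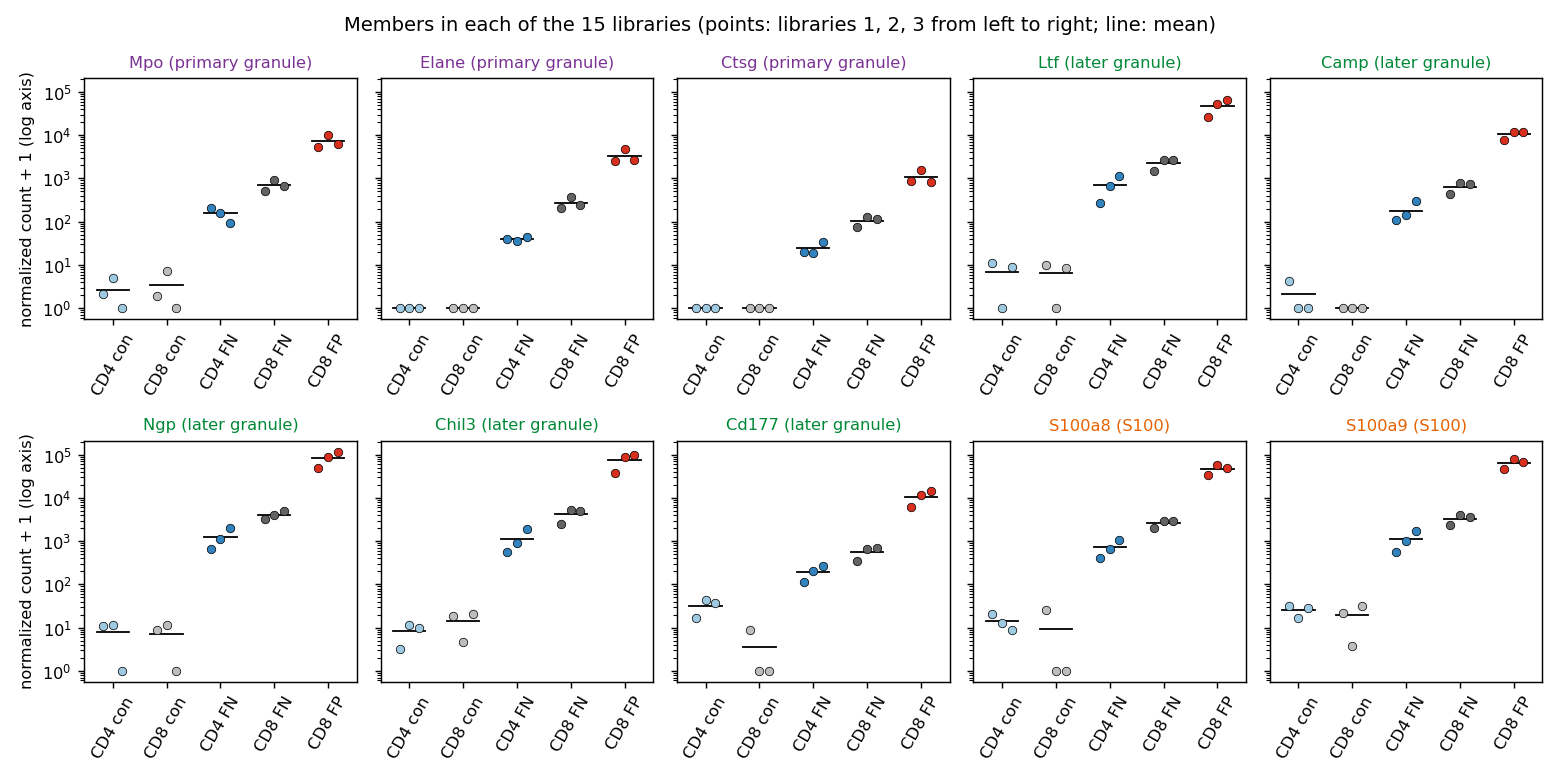
Normalized counts plus 1 (log axis) of the 10 genes in each library, by population (con, control; FN, Flica-negative; FP, Flica-positive), with libraries 1, 2 and 3 from left to right and a line at the mean. Elane and Ctsg sit at 0 counts in all 6 controls, and the 3 FP libraries lie above all others in each panel.

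Mpo encodes myeloperoxidase, the heme enzyme of primary granules that makes hypochlorous acid. It had 5258, 9925 and 6356 normalized counts in FP libraries 1, 2 and 3, against 520, 912 and 668 in CD8 FN and 208, 160 and 94.5 in CD4 FN libraries. The CD4 controls held 5 Mpo reads and the CD8 controls 8, with between 0 and 7 per library. The mean was 7180 ± 2440 in FP and 700 ± 198 in CD8 FN cells (SD, n = 3), a 10.3-fold difference (log2 3.36, SE 0.31). CD4 FN library 1 was the highest of its population for Mpo.

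Elane encodes neutrophil elastase, a serine protease of the same granules. Its normalized counts were 2494, 4851 and 2643 in FP, 203, 368 and 243 in CD8 FN and 37.9, 35.7 and 44.0 in CD4 FN libraries. No Elane read was counted in any of the 6 controls. Against a floor of 3 counts in each control library, Elane was at least 1216-fold higher in FP, at least 99.0-fold higher in CD8 FN and at least 13.2-fold higher in CD4 FN cells than in the controls of the same lineage. FP exceeded CD8 FN 12.3-fold (log2 3.62, SE 0.34).

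Ctsg encodes cathepsin G, a chymotrypsin-like protease stored beside elastase. It was the least abundant of the 10 genes, with 887, 1589 and 806 normalized counts in FP, 73.5, 129 and 113 in CD8 FN and 19.4, 17.9 and 32.0 in CD4 FN libraries. Controls held no Ctsg read, so that FP cells were at least 400-fold, CD8 FN cells at least 38.4-fold and CD4 FN cells at least 7.77-fold higher. In all 3 primary granule genes FP library 2 was the highest, and FP exceeded CD8 FN 10.4-fold for Ctsg (log2 3.38, SE 0.35).

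Ltf encodes lactoferrin, the iron-binding protein that defines secondary granules. It had more reads than the primary granule genes, with 26707, 52774 and 66149 normalized counts in FP, 1493, 2731 and 2601 in CD8 FN and 276, 670 and 1125 in CD4 FN libraries. Controls had between 0 and 10.0. FP exceeded CD8 FN 21.3-fold (log2 4.42, SE 0.37), the largest of these differences. FP library 1 was the lowest of the FP libraries and CD4 FN library 1 the lowest of the CD4 FN libraries.

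Ngp encodes neutrophilic granule protein, a cystatin-like protein of secondary granules. It had 49998, 88047 and 114640 normalized counts in FP, 3175, 4011 and 4944 in CD8 FN, 671, 1108 and 2029 in CD4 FN and at most 10.7 in control libraries. Its FP mean was 20.8-fold that of CD8 FN cells (log2 4.38, SE 0.32). Camp encodes the cathelicidin precursor, an antimicrobial peptide. Camp had 7657, 12013 and 12059 normalized counts in FP, 439, 769 and 728 in CD8 FN and 108, 138 and 292 in CD4 FN libraries. One control library held 3 Camp reads and the other 5 held none. The 3 reads make the ratio of CD4 FN to CD4 control cells imprecise, at 161-fold with a 95% counting interval of 64.6 to 922 (exact, counting error only). FP exceeded CD8 FN 16.4-fold for Camp (log2 4.03, SE 0.30).

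Chil3 encodes Ym1, a chitinase-like lectin of neutrophils and alternatively activated macrophages. It had 37994, 85895 and 97669 normalized counts in FP, 2506, 5174 and 4857 in CD8 FN, 558, 890 and 1933 in CD4 FN and between 2.23 and 19.2 in control libraries. FP exceeded CD8 FN 17.7-fold (log2 4.14, SE 0.40). Chil3 has the near-identical neighbour Chil4, and how reads shared by the pair were assigned is not given in the sources used here. Cd177 encodes a surface and secondary granule glycoprotein of neutrophils. Its normalized counts were 6231, 11561 and 14241 in FP, 349, 656 and 694 in CD8 FN and 111, 203 and 262 in CD4 FN libraries, and FP exceeded CD8 FN 18.9-fold (log2 4.24, SE 0.37). Cd177 was also seen in the CD4 controls, at 15.6, 41.6 and 35.6, against 7.93, 0 and 0 in the CD8 controls. CD4 FN cells thus had 6.21-fold the level of CD4 controls for Cd177, and CD8 FN cells 214-fold that of CD8 controls, which rests on 9 control reads in 1 library.

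S100a8 and S100a9 encode the calprotectin subunits. S100a8 had 33644, 58756 and 50342 normalized counts in FP, 1967, 2897 and 2906 in CD8 FN, 402, 672 and 1063 in CD4 FN and at most 24.7 in control libraries. S100a9 had 47760, 78199 and 67630 in FP, 2337, 3925 and 3711 in CD8 FN, 570, 1001 and 1731 in CD4 FN and at most 31.3 in control libraries. FP exceeded CD8 FN 18.4-fold for S100a8 (log2 4.20, SE 0.27) and 19.4-fold for S100a9 (log2 4.28, SE 0.28). Within a library the pair had between 133 and 142 S100a9 per 100 S100a8 normalized counts in FP, between 119 and 135 in CD8 FN and between 142 and 163 in CD4 FN libraries.

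Per kilobase of exon, S100a9 was the most abundant of the set in FP cells, at 123620 ± 29607 normalized counts per kb (SD, n = 3). Ngp (68927 ± 26587) and S100a8 (68560 ± 18418) followed and did not differ beyond their spread. Chil3 (45253 ± 19368) came next, then Ltf (14071 ± 5814) and Camp (13953 ± 3336), which lay within each other's spread. Cd177 (3760 ± 1436) and Elane (3383 ± 1342) overlapped, and Mpo (2097 ± 713) and Ctsg (1059 ± 417) were lowest. Among 4371 listed genes with an exon length, S100a9 ranked 16th and Ctsg 225th by mean level per kb in FP cells. In CD8 FN cells S100a9 ranked 38th and Ctsg 864th.

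The FP to CD8 FN difference was smaller for the primary granule genes than for the later granule and S100 genes. By class sums, FP exceeded CD8 FN 10.8-fold for primary granule genes (log2 3.43, SE 0.37), 19.5-fold for later granule genes (log2 4.28, SE 0.46) and 19.0-fold for the S100 pair (log2 4.24, SE 0.31). The 3 primary granule genes lay between log2 3.36 and 3.62 and the other 7 between 4.03 and 4.42, beside a median of 0.45 over the 4286 listed genes tested. The standard errors of single genes, 0.27 to 0.40, are of the size of the gap between the classes. Without FP library 1, where erythroid markers stood apart, the class differences were 3.60, 4.57 and 4.43, and with TMM they were 2.86, 3.72 and 3.68.

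**Figure D2:**
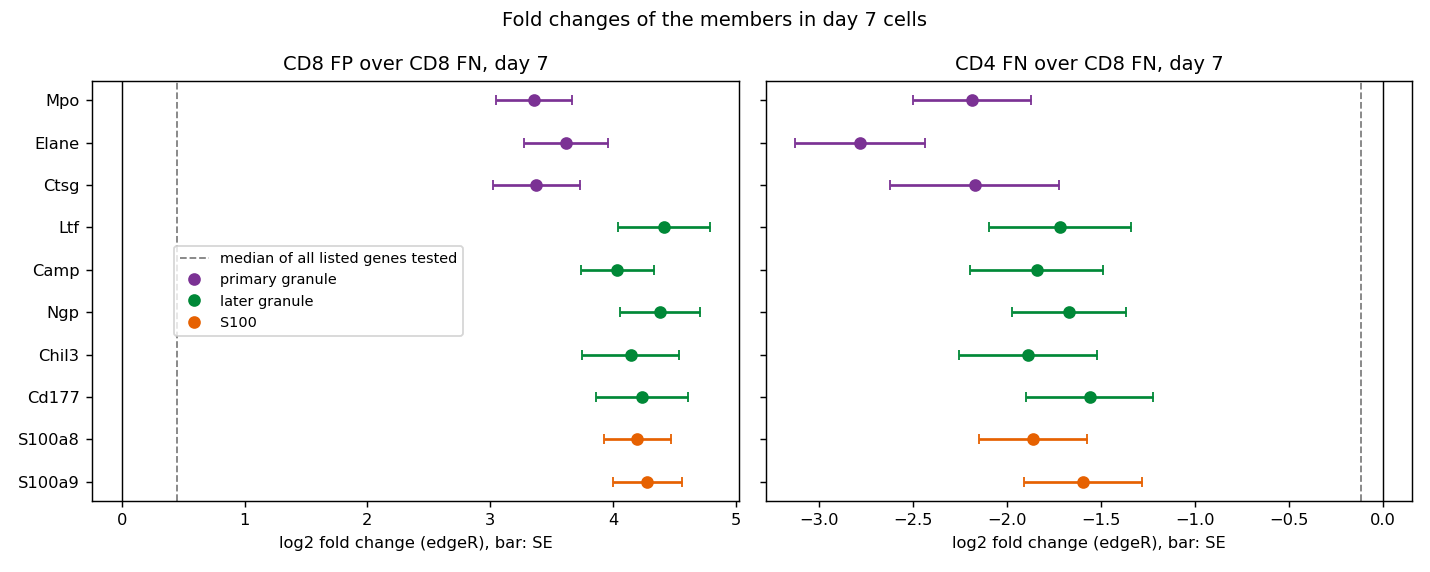
Log2 fold changes with standard errors (edgeR) of the 10 genes in FP over CD8 FN cells (left) and CD4 FN over CD8 FN cells (right), colored by class, with a dashed line at the median of all listed genes tested. Primary granule genes lie between 3.36 and 3.62 on the left and are the lowest on the right, between -2.78 and -2.17.

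The smaller difference of the primary granule genes can also be read within each library, where size factors cancel. The primary granule sum was 6.72, 6.54 and 3.22 per 100 of the later granule sum in FP libraries 1, 2 and 3, and 10.0, 10.6 and 7.40 in CD8 FN libraries. The 2 populations did not overlap. CD4 FN libraries were at 15.4, 7.08 and 3.02 and spanned both. Mpo per 100 Ltf normalized counts gave 19.7, 18.8 and 9.61 in FP, 34.8, 33.4 and 25.7 in CD8 FN and 75.4, 23.8 and 8.40 in CD4 FN libraries. Replicate 3 had the lowest of these ratios in all 3 day 7 populations. With 3 libraries against 3, an exact two-sided permutation test could not go below 0.10, and none is given because the contrast chose the genes. S100 per 100 of the later granule sum overlapped between the populations, at 63.3, 54.7 and 38.7 in FP, 54.1, 51.1 and 47.9 in CD8 FN and 56.4, 55.6 and 49.5 in CD4 FN libraries.

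**Figure D3:**
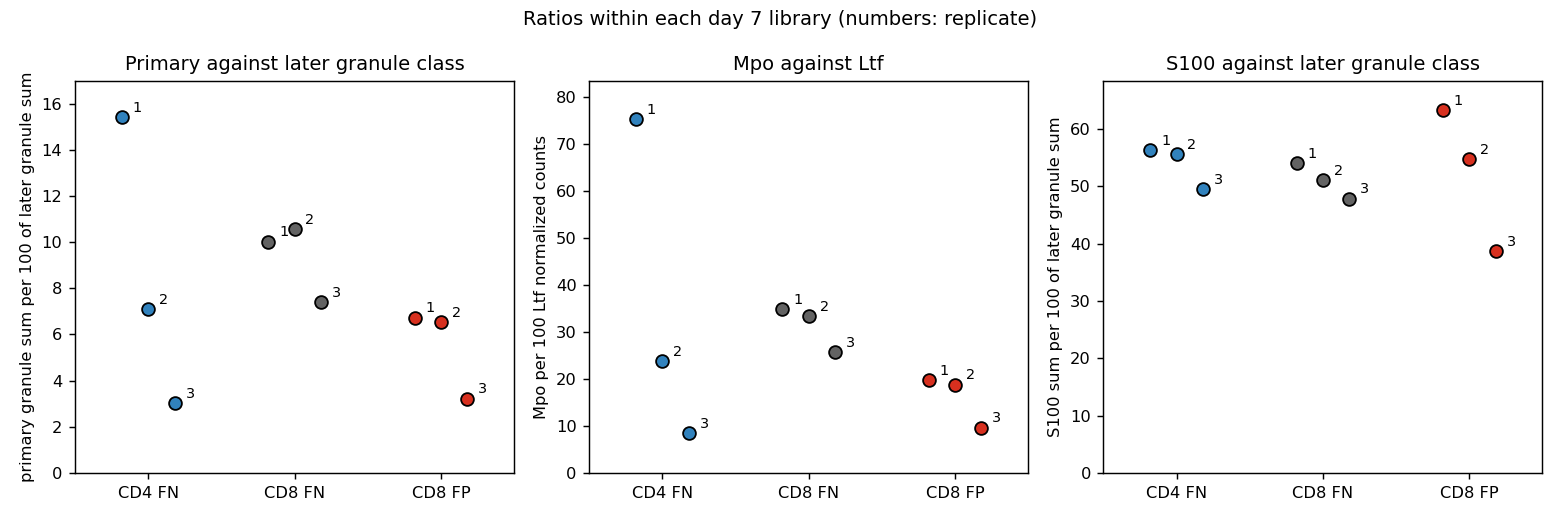
Ratios within each day 7 library, numbered by replicate: primary granule sum per 100 of later granule sum, Mpo per 100 Ltf, and S100 sum per 100 of later granule sum, all of normalized counts with axes from 0. In the left panel FP libraries (3.22 to 6.72) lie below CD8 FN libraries (7.40 to 10.6), and CD4 FN libraries (3.02 to 15.4) span both.

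Within populations the later granule and S100 genes moved together from library to library, and Mpo less so. Deviations from the population mean of log2(normalized count + 1) were compared over the 9 day 7 libraries as a description, since both genes of a pair share each library and its size factor. For the 10 pairs of later granule genes Pearson r was between 0.89 and 0.97 (Spearman rho 0.88 to 0.98). For each pair, the 2 libraries farthest from the median deviation of its first-listed gene were then left out. That put r between 0.80 and 0.96. For the 10 pairs of an S100 and a later granule gene r was between 0.90 and 0.96 (rho 0.82 to 0.88). It was between 0.77 and 0.96 without the 2 libraries chosen for each pair. The 15 pairs of a primary and a later granule gene spread from -0.29 to 0.74 (rho -0.28 to 0.50), with the negative values all from Mpo. Without the 2 libraries chosen for each pair they spread from -0.05 to 0.63, and the only negative value was that of Mpo with Ngp. Elane and Ctsg had r of 0.88 with each other. In CD4 FN cells library 1 was the highest for Mpo and the lowest for Ltf, and library 3 the reverse.

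**Figure D4:**
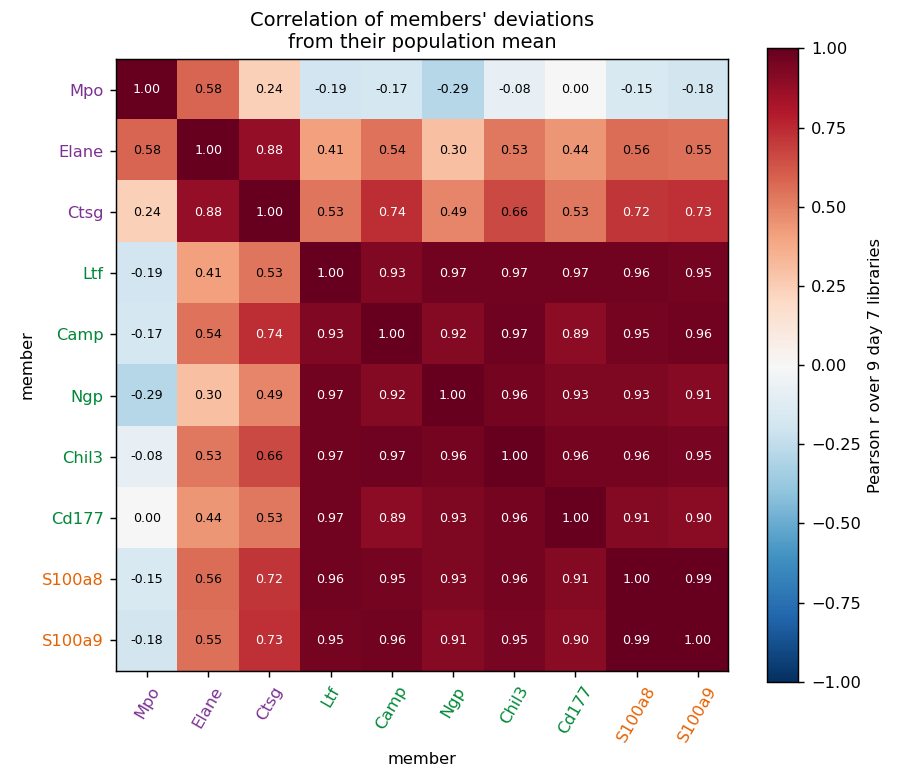
Pearson r of deviations from the population mean of log2(normalized count + 1) for each pair of the 10 genes over 9 day 7 libraries. The later granule and S100 genes form a block at 0.89 and above, while Mpo has r of -0.29 to 0.00 with them.

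The contrast of CD4 with CD8 FN cells on day 7 is in no deposited table, so that the 10 genes could be tested in it, although the CD8 FN and CD4 FN libraries also served in the contrasts that chose them. All 10 genes were lower in CD4 FN than in CD8 FN cells, with no overlap of libraries. Elane was the furthest apart, 6.91-fold lower in CD4 FN cells (log2 -2.78, SE 0.34, edgeR adjusted p = 5.44e-05). Mpo was 4.54-fold lower (log2 -2.18, SE 0.31, edgeR adjusted p = 0.000189) and Ctsg 4.55-fold lower. The 5 later granule genes were between 2.95-fold (Cd177) and 3.71-fold (Chil3) lower, S100a8 3.64-fold and S100a9 3.02-fold.

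All 10 of 10 passed the test in this direction, with edgeR adjusted p between 5.44e-05 and 0.0045, where 12.6% of the 4241 listed genes tested were called lower in CD4 FN cells and 10.1% higher. Over all 4567 listed genes 19.6% were lower in every CD4 FN than in every CD8 FN library. The median log2 difference of the 10 genes was -1.85, beside -0.12 over all genes tested. The primary granule sum was 4.97-fold lower (log2 -2.31, SE 0.30), the later granule sum 3.39-fold lower (log2 -1.76, SE 0.56) and the S100 sum 3.26-fold lower (log2 -1.71, SE 0.49). These class differences overlap within their errors. Of 20 other granule genes 8 were called lower and 1, Adam8, higher (log2 0.82, SE 0.13, edgeR adjusted p = 0.000556). Macrophage markers summed to between 635 and 1168 normalized counts in CD4 FN libraries and between 1189 and 2393 in CD8 FN libraries, and their part in the difference was not tested.

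In control cells on day 0 none of the 7 of these genes with enough reads to be tested passed the edgeR test between CD4 and CD8 cells. At an unadjusted p below 0.05 there was 1, Cd177, which was higher in CD4 controls (log2 3.48, SE 1.31, edgeR adjusted p = 0.105). DESeq2 called Cd177 (adjusted p = 0.0347) and no other. The CD4 value lay above the CD8 value in every library for Cd177 and for none of the other 9 genes, beside 14.1% of all listed genes. Among the 3952 listed genes tested 5.85% were lower and 7.11% higher in CD4 controls, and 11.7% of all listed genes were lower in every CD4 control library than in every CD8 one, with 0 of the 10 among them. Elane and Ctsg had no read in either control, and Camp had 3.

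The wider granule program was followed through lists chosen with earlier results of these data known. Only genes past the thresholds of at least 1 contrast have rows, so that their counts run above what all genes of a list would show. Of 20 other granule genes with a row (of 22), 19 were called higher in FP than in CD8 FN cells by edgeR, 20 in FP than in CD8 controls, 18 in CD8 FN than in CD8 controls and 14 in CD4 FN than in CD4 controls. None was called lower. Over all genes tested, 21.7%, 47.2%, 38.8% and 33.0% were called higher in these contrasts. The median log2 difference of the 20 genes between FP and CD8 FN was 4.10. With TMM 17 of the 20 were called higher there, without Prss57 and Pglyrp1.

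Among other primary granule genes, Prtn3, proteinase 3, a close relative of elastase, had 2735, 4642 and 3128 normalized counts in FP and 208, 366 and 351 in CD8 FN libraries, an 11.4-fold difference close to that of Mpo and Elane. Clec5a, a myeloid lectin receptor, was 15.5-fold higher, Serpinb1a, an inhibitor of the granule proteases, 4.97-fold and Prss57, a further granule protease, 3.30-fold. Among secondary and tertiary granule genes, Lcn2, the siderophore-binding lipocalin, had 18880, 35143 and 42124 in FP and 1219, 1914 and 1659 in CD8 FN libraries, a 20.1-fold difference. Lyz2, lysozyme, was 18.6-fold higher and Pglyrp1, a peptidoglycan-binding protein, 2.08-fold. Adam8, a membrane protease, was the only 1 of the 20 not called (1.44-fold, edgeR adjusted p = 0.108). The median fold was 8.17 over the 4 other primary granule genes and 19.9 over the 16 other secondary and tertiary granule genes, which overlap in range.

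Genes of neutrophil surface and maturation were called higher in FP than in CD8 FN cells for 18 of 19 with a row, with a median fold of 20.1. Over all listed genes tested 21.7% were called higher there, and a row required passing the thresholds of at least 1 contrast. Retnlg, a resistin-like protein of mature neutrophils, had 1652, 4375 and 5164 normalized counts in FP and 98.0, 132 and 98.4 in CD8 FN libraries, a 34.1-fold difference. Anxa1, an annexin, was 7.96-fold higher. Ly6c2, which CD8 T cells also carry, was the 1 not called (1.59-fold, edgeR adjusted p = 0.057), and Mxd1, a Myc antagonist, was 1.92-fold higher and was not called with TMM. All 7 regulators and progenitor genes with a row were called higher in FP cells, with a median fold of 14.3. They include Spi1, the gene of PU.1 (21.4-fold), Igsf6 (19.2-fold), Fcnb (14.3-fold) and Cebpa (10.9-fold). Fcnb is also in the list of secondary and tertiary granule genes. Between CD4 and CD8 FN cells 12.6% of all listed genes tested were called lower in CD4 FN cells and 10.1% higher. Of the 7 regulators and progenitor genes, 3 were called lower there, as the 10 genes were. Cebpa was called higher there (log2 1.67, SE 0.47, edgeR adjusted p = 0.0190). Spi1 was not called in CD8 FN against CD8 control cells, where its mean was 119 ± 19.2 against 73.3 ± 24.2 normalized counts (SD, n = 3). Cybb (15.7-fold) and Ncf1 (6.55-fold), which encode subunits of the phagocyte NADPH oxidase, were called higher in FP cells as well. Cybb is also in the list of secondary and tertiary granule genes.

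Between FP and CD8 FN cells 21.7% of all listed genes tested were called higher. Of the other S100 and alarmin genes, 5 of 7 and 5 of 8 were not called there. S100a6, S100a10 and S100a11, small S100 family proteins of many activated cells, were already high in day 7 FN cells and were among those not called. S100a6 had a mean of 13874 ± 1760 normalized counts in FP, 12650 ± 1023 in CD8 FN, 8913 ± 748 in CD4 FN and 69.5 ± 19.4 in CD8 control cells (SD, n = 3). Lgals1, galectin 1, had 23433 ± 4460, 22812 ± 2511, 16124 ± 408 and 872 ± 43.0 in the same groups, and Hmgb2, a chromatin alarmin, was 1.46-fold higher in FP than in CD8 FN cells (edgeR adjusted p = 0.0625). Hspa1a and Hspa1b, inducible heat shock proteins, were lower in FP and CD8 FN cells than in CD8 controls and not called between FP and CD8 FN. With TMM the log2 differences of S100a6 (-0.44), S100a11 (-0.19), Lgals1 (-0.52) and Hmgb2 (-0.01) turned negative and were not called, while S100a10 (-0.79) and Hspa1b (-0.87) were called lower in FP cells, and Tlr4 and Cd33 stayed called higher. Of the S100 list 2 of 7 genes with a row were called between FP and CD8 FN cells, both higher: Cd33, a myeloid lectin bound by S100A9 (23.7-fold), and Tlr4, a calprotectin receptor (17.6-fold), the latter named after its value was seen. Of the other alarmins 3 of 8 were called, all higher: Wfdc17 (12.9-fold), Anxa1 (7.96-fold) and Saa3 (7.64-fold). Anxa1 is also in the list of neutrophil surface and maturation genes. Wfdc17 and Saa3 were named after their values were seen. Saa3 was not called with TMM.

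**Figure D5:**
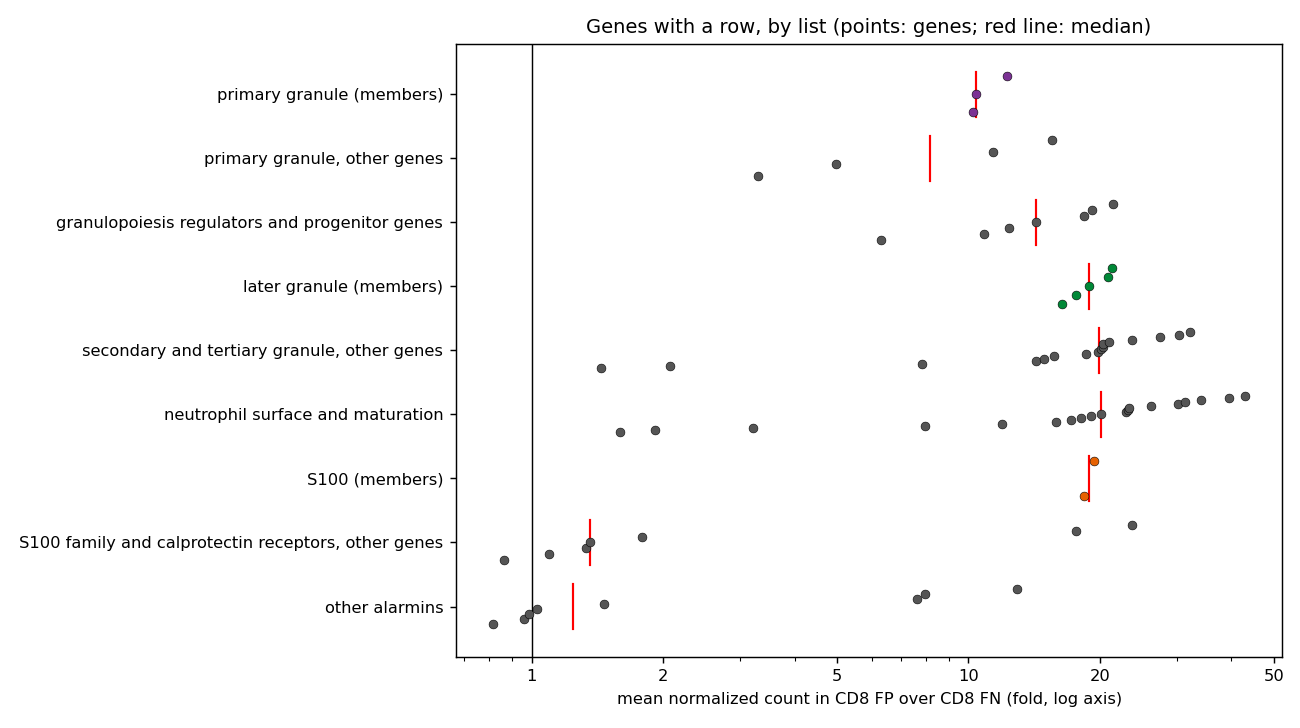
Mean normalized count in FP over CD8 FN cells (fold, log axis) for each gene with a row, by list, with a red line at the median. Primary granule genes of the set lie between 10.3 and 12.3, later granule genes between 16.4 and 21.3, and most other S100 and alarmin genes near 1.

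The genes most like each class were ranked by Pearson r of log2(normalized count + 1) with log2 of the summed class level plus 1 over all 15 libraries, among 1652 other genes with a mean of at least 100. Libraries of a population share their level, so that r rests mainly on the 5 populations. For primary granule genes the nearest were Gyg (0.990), Gm11505 (0.988), Dna2 (0.986), Fcnb (0.984) and Prtn3 (0.984). Gm11505, as for Elane and Ctsg, had no count in controls and was 10.0-fold higher in FP than in CD8 FN cells, while Gyg was present in controls and only 1.57-fold higher. For later granule genes they were Alox5 (0.992), Wfdc21 (0.991), Abca13 (0.990), Olfml2b (0.988) and Fcnb (0.988), which were between 13.3-fold and 17.3-fold higher. For the S100 pair they were Wfdc21, Alox5, Abca13, Ptgs1 and Gm13160, with r between 0.983 and 0.984.

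Most markers of macrophages, mast cells and basophils, and erythroid cells with a row were also higher in FP than in CD8 FN cells, where 21.7% of all listed genes tested were called higher. A marker has a row only if it passed the thresholds of at least 1 contrast, and FP cells are part of these contrasts. The counts of called markers therefore run above what all markers would show. Macrophage markers were called higher in FP than in CD8 FN cells for 13 of 14 genes with a row. Against CD8 control cells 13 of the 14 were called higher in FP cells, but 3 higher and 1 lower in CD8 FN cells. The macrophage marker sum was between 18600 and 36669 normalized counts in FP against 1189 to 2393 in CD8 FN libraries. In CD8 FN cells Mertk was at 0 in library 1 and C1qb, Cd163 and Spic in library 3, and in FP cells no macrophage marker was at 0 in a library, genes named here after their values were seen. Lyz2, which is also in the granule list, made up most of it, with a mean of 26217 ± 10046 in FP (SD, n = 3). Mast cell and basophil markers were called for 7 of 7 and summed to between 2740 and 4588 in FP against 177 to 278 in CD8 FN libraries. Erythroid markers were called for 7 of 7, with sums of 2045 to 112762 in FP against 347 to 3816 in CD8 FN libraries. CD8 control libraries had sums of 2020 to 8153, and 3 of the 7 were called higher in FP than in CD8 control cells. Only 3 of the 7 were higher in every FP than in every CD8 FN library. The globin Hba-a1 was at 31093, 1687 and 407 in FP and 1042, 139 and 105 in CD8 FN libraries. Megakaryocyte markers were called for 2 of 5 (328 to 605 against 25.6 to 63.9), eosinophil markers for 2 of 4 (261 to 354 against 50.1 to 77.7) and B cell markers for 2 of 8 (414 to 777 against 173 to 222). One megakaryocyte marker, Gp9, and 1 B cell marker, Ms4a1, were at 0 in all CD8 FN libraries and were named after their values were seen. B cell markers were at 6398 to 9513 in the CD8 controls and 6590 to 8619 in the CD4 controls, where the 10 genes were far below their day 7 levels. The part of any of these, or of the mitochondrial share, in the difference was not tested.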

How the data were processed

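The authors deposited 4 gene tables, each listing genes past an adjusted p of 0.05 and an absolute log2 fold change of 2 in 1 contrast, with whole-number read counts of all 15 libraries. Counts of a gene were the same in every table that lists it. Per the submitters' processing notes, reads were aligned with STAR 2.7.1a to GRCm38 and analysed with DESeq2. The counting tool, its strand setting and the annotation are not given in the sources used here. The deposited gene mean is a normalized signal, the 15-library average after each count was scaled by a size factor of the authors. The 15 factors (0.836 to 1.25) were recovered by least squares with a largest relative error of 5e-15. The authors' own fold changes, p-values and pathway enrichments were deposited too and were not used.

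Two-group edgeR 4.0.16 quasi-likelihood fits (R 4.3.3) used the deposited counts with those factors, genes with at least 10 counts over the compared libraries, and Benjamini-Hochberg adjustment over all listed genes tested (called at 0.05). The code was tested on simulated data. Only genes past a threshold are listed, so library depth is unknown, and edgeR dispersions come from listed genes. A group with no read was set to a floor of 3 counts per library, which covers counting error only. The alternatives were TMM over listed genes, DESeq2 1.42.0, no filter, a replicate block, leaving out each library, and 1 fit of all groups.

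The genes and lists were chosen with earlier results of these data known. Named were the 10 genes, the up to 4 genes with the highest mean of each list, and the 5 genes most like each class, of which 1 gene is not reported here. Promoters are from RefSeq (GRCm38.p6). Gene positions and exon lengths are from GENCODE M21, which held 4371 of the 4567 genes.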

Additional observations from a re-analysis of the deposited data

How the results depend on the processing

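With other scaling, filters, tools and each library left out, all 10 genes stayed called lower in CD4 than in CD8 FN cells. Between CD4 and CD8 controls 0 of 7 were called, against 1 (Cd177) with DESeq2, 1 with 1 fit of all 5 groups, and 0 to 1 when a library was left out (1 without CD8 control library 1). Day 0 log2 differences turned sign when a library was left out, over -1.06 to 0.067 for Mpo, -0.45 to 0.70 for Ltf, -0.44 to 0.77 for Ngp and -0.068 to 1.05 for S100a9. These rest on few reads.

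With TMM the class log2 difference was 3.68 for S100 (FP against CD8 FN), and 10.64 for primary and 11.39 for later granule genes (FP against CD8 control). Leaving out 1 library moved the primary granule difference to 11.66 to 14.69 (FP against control), 8.23 to 11.25 (CD8 FN against control) and 6.44 to 8.60 (CD4 FN against control), the last being 5.32 as a mean of log2 values. The extremes came without control library 2 or 3, and the controls hold 8 CD8 and 5 CD4 primary granule reads.

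Over all listed genes, calls between FP and CD8 FN went from 1049 to 685 without CD8 FN library 2, and between CD4 and CD8 FN from 964 to 640 with 1 fit of all groups and to 609 without CD4 FN library 2. The replicate block changed no call of the 10 genes (10 and 0) and left the other granule genes at 19, 20, 18 and 14 calls, while all calls between FP and control went from 3244 to 2107. Same-numbered libraries deviated together by r of 0.06 to 0.36 within a day and -0.08 to 0.01 across days, and each of the 6 libraries correlated best with its own number in each same-day comparison. The paper describes sorting of pooled splenocytes into the groups. That same-numbered libraries share a sort is not stated and is a hint from the data only. The main fits treated the libraries as unpaired. Depth is unknown.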
